A study of Drosophila melanogaster with 12 samples.

Results

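The genes followed here, through pooled male reproductive tracts of Drosophila melanogaster, are 10 paralogues of proteasome subunits known from the fly testis: Prosalpha3T, Prosalpha4T1, Prosalpha4T2, Prosalpha6T, Prosbeta2R1, Prosbeta2R2, Prosbeta5R1, Rpt3R, Rpt4R and Rpt6R. They were chosen as named paralogues, with no threshold on measured values, and are 10 of the 17559 genes counted in each library. All 10 passed the filter on low counts. Each was set beside its ubiquitous counterpart, the subunit that takes the same place in the proteasome of other cells, which gave 8 further genes.

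The males came from 6 populations founded from the IV laboratory population and kept for 168 generations under 2 mating regimes. Polygamous populations (P1, P2 and P3) mated in groups of 5 males and 5 females, and monogamous populations (M1, M2 and M3) as pairs of 1 male and 1 virgin female. Tracts were dissected from virgin males aged 96 h or 48 h, which gave 4 groups of 3 libraries, polygamous at 96 h, polygamous at 48 h, monogamous at 96 h and monogamous at 48 h. Each library pooled 30 tracts of 1 population at 1 age, with accessory glands, testes and ejaculatory duct together, so a population has 1 pool per age. The labels name no transgene or drug for any group. A level is therefore a share of the RNA of the whole tract, in which fewer cells of a type and less RNA per cell cannot be told apart.

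The proteasome is the protease complex that degrades ubiquitin-tagged proteins. Its 20S core is a barrel of alpha and beta rings, the alpha rings forming the gate and some of the beta subunits cutting the substrate, and its 19S cap carries a ring of Rpt ATPases that unfold the substrate and feed it in. In the fly male germ line, duplicated genes encode alternative copies of many of these subunits, which join the complex during spermatogenesis. Prosalpha6T is the best studied of them, and males that lack it are sterile, with defects late in sperm development.

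Gene counts summed to 31367030 to 40581251 per library. One label of these samples names the accessory gland alone, while another names the whole tract. Testis RNA was present in every library: 18 spermatid genes summed to between 36830 and 52820 CPM (counts scaled to a common library size), with none of them at 0. The series has no tissue without testis, so whether the 10 genes are confined to the testis was not measured. One library, M1 at 48 h, was unlike the rest: its score on the leading principal component (30.99% of the variance) was -58.19, and the scores of the other libraries ran from -10.43 to 12.71.

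The 10 genes are scattered over the genome (BDGP6). On 3R lie Prosalpha3T (3R:31122527-31123415), Prosalpha4T1 (3R:20748184-20749074), Prosbeta2R2 (3R:5217751-5219528), Rpt3R (3R:9754735-9756510) and Rpt6R (3R:30582198-30583697), all on the minus strand. Prosalpha4T2 (2R:24500780-24502277) and Prosbeta5R1 (2R:23308654-23309816) lie on the minus strand of 2R. Prosalpha6T (2L:13232039-13233058), Rpt4R (3L:11941912-11943485) and Prosbeta2R1 (X:5808954-5810158) lie on the plus strand. Only 1 of the 10 is X-linked, whereas 4 of their 8 ubiquitous counterparts (Prosalpha4, Rpt3, Rpt4 and Rpt6) are, and 15.6% of the protein-coding genes counted are. Prosalpha3T, Prosalpha4T1 and Prosalpha6T have 1 exon each, while Prosalpha3, Prosalpha4 and Prosalpha6 have 3 exons each. The annotated proteins differ little in length from their counterparts among the alpha and Rpt subunits, from 13 codons fewer in Prosalpha3T to 10 more in Prosalpha6T. The beta paralogues are all longer: Prosbeta2R1 has 307 codons and Prosbeta2R2 322, against 272 in Prosbeta2, and Prosbeta5R1 has 315, against 282 in Prosbeta5.

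Among the alpha-ring paralogues, Prosalpha6T and Prosalpha4T2 were abundant and Prosalpha4T1 and Prosalpha3T scarcer. Prosalpha6T had 146, 140.3 and 145 CPM in polygamous males of P1, P2 and P3 at 96 h, and 152, 155 and 147 CPM at 48 h. In monogamous males of M1, M2 and M3 it had 147, 145 and 142 CPM at 96 h, and 216.5, 154 and 148 CPM at 48 h. All of these values but one lay between 140.3 and 155 CPM, and M1 at 48 h lay above them. Prosalpha4T2 had 122, 123 and 119.7 CPM in polygamous males at 96 h and 127, 121 and 120 CPM at 48 h. It had 121, 115.5 and 117 CPM in monogamous males at 96 h and 165, 120.1 and 114 CPM at 48 h. The same library was again the highest, and the others lay between 114.1 and 126.6 CPM. Prosalpha4T1, the other copy of the same alpha subunit, had 33.4 to 40.4 CPM in the libraries other than M1. Prosalpha3T had 24.0 to 30.2 CPM in those libraries.

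The beta-ring paralogues belong to catalytic positions, Prosbeta2R1 and Prosbeta2R2 to the subunit with trypsin-like activity and Prosbeta5R1 to that with chymotrypsin-like activity. Prosbeta5R1 was the most abundant of them, with 125, 139 and 126 CPM in polygamous males at 96 h and 118, 145 and 125 CPM at 48 h. In monogamous males it had 126, 129.5 and 139.9 CPM at 96 h and 176, 138 and 141 CPM at 48 h. P2 was the highest polygamous population at both ages. Prosbeta2R1 varied little, from 41.8 to 45.35 CPM in the 10 libraries other than those of M1. Prosbeta2R2 had 72.4, 70.6 and 67.2 CPM in polygamous males at 96 h, against 63, 62.0 and 59.2 CPM at 48 h. In monogamous males it had 65.3, 65.2 and 65.7 CPM at 96 h, against 69.2, 61.3 and 50.1 CPM at 48 h. The polygamous libraries of the ages did not overlap, and those of monogamous males did, through M1.

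Rpt3R and Rpt4R, ATPase paralogues of the cap, were steady. Rpt3R had 86.9 to 97.5 CPM over the 12 libraries, the smallest relative spread of the 10 genes (coefficient of variation 3.96%). Rpt4R had 72.6 to 91.4 CPM. Rpt6R was the one gene whose level differed strongly between populations: it had 78.1, 109.5 and 154 CPM in polygamous males of P1, P2 and P3 at 96 h, and 78.5, 122 and 161 CPM at 48 h. In monogamous males of M1, M2 and M3 it had 77.7, 87.0 and 75.9 CPM at 96 h, and 96.1, 88.5 and 77.3 CPM at 48 h. P2 and P3 stood above all other libraries at both ages, and P1 lay among the monogamous populations.

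Per kb of exon, which allows genes to be compared, Prosalpha6T led with 150.1 ± 20.02 CPM per kb, followed by Prosbeta5R1 with 122.5 ± 13.7 and Prosalpha4T2 with 98.7 ± 10.8 (SD, n = 12 libraries). Below them came Rpt6R with 69.5 ± 20.9, Rpt3R with 63.6 ± 2.52, Rpt4R with 55.1 ± 3.48 and Prosbeta2R2 with 48.7 ± 4.49 CPM per kb. Prosalpha4T1 with 43.2 ± 3.77, Prosbeta2R1 with 41.5 ± 3.71 and Prosalpha3T with 30.9 ± 2.75 CPM per kb were lowest. Within single libraries the order held in 12 of 12 for Prosalpha6T over Prosbeta5R1 and for Prosbeta5R1 over Prosalpha4T2. Rpt6R exceeded Rpt3R in 5 of 12 libraries, so that pair has no stable order, and Prosalpha4T1 exceeded Prosbeta2R1 in 9 of 12. The ranges over all libraries overlapped for every pair of neighbours other than Prosbeta2R1 and Prosalpha3T.

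**Figure D1:**
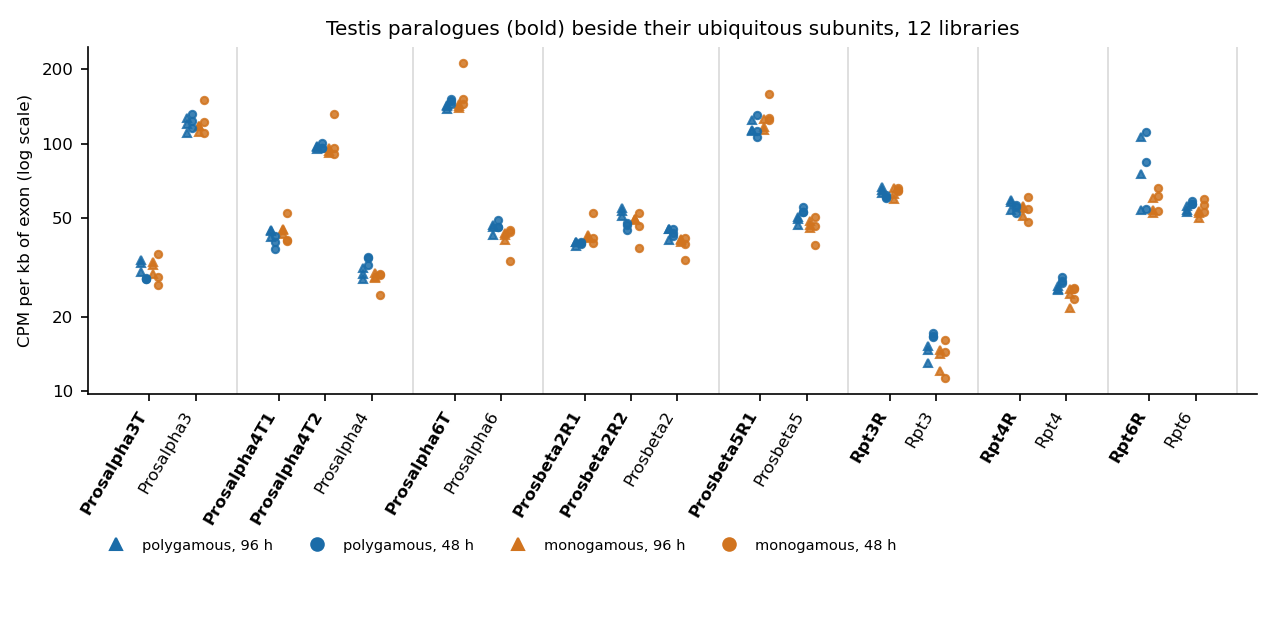
CPM per kb of exon (log axis) of the 10 testis paralogues, in bold, beside their ubiquitous subunits; each point is 1 of the 12 libraries, triangles 96 h and circles 48 h, blue polygamous and orange monogamous. Prosalpha6T is highest at 150.1 CPM per kb on average, Prosalpha3T is the one paralogue far below its counterpart, and Rpt6R is spread from 52.5 to 111.5.

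In the whole tract, the testis copy was the larger share of the RNA at 7 of the 8 proteasome positions. The ratio of paralogue to ubiquitous subunit, per kb of exon, averaged 4.40 ± 0.670 for Rpt3R, 3.48 ± 0.908 for Prosalpha6T, 3.31 ± 0.684 for Prosalpha4T2, 2.54 ± 0.523 for Prosbeta5R1 and 2.14 ± 0.212 for Rpt4R (SD, n = 12 libraries), above 1 in every library. Prosalpha4T1 also exceeded Prosalpha4 in 12 of 12 libraries, at 1.45 ± 0.265. Prosbeta2R2 averaged 1.18 ± 0.145 (above 1 in 11 of 12 libraries) and Prosbeta2R1 1.01 ± 0.182 (6 of 12). The Rpt6R ratio averaged 1.26 ± 0.366, was above 1 in 9 of 12 libraries, and depended on the population: it was 1.36 to 1.96 in P2 and P3 and 0.926 to 1.2 in the other 4 populations. The Prosbeta2R1 ratio was 0.960 without M1 at 48 h. With both copies summed where there are 2, testis paralogues made up 82.3 ± 2.18% of the per-kb RNA at the alpha4 position, 81.2% at Rpt3, 77.1% at alpha6, 71.3% at beta5, 68.4% at beta2, 68.0% at Rpt4 and 54.8% at Rpt6.

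Alpha3 was the exception. Prosalpha3T reached 0.255 ± 0.0274 of the level of Prosalpha3, or 20.3 ± 1.72% of the per-kb RNA at that position, and in no library did it exceed 0.307. Its ratio was 0.275, 0.240 and 0.307 in polygamous males of P1, P2 and P3 at 96 h, against 0.230, 0.2155 and 0.248 at 48 h. In monogamous males of M1, M2 and M3 it was 0.252, 0.281 and 0.291 at 96 h, against 0.2385, 0.238 and 0.2435 at 48 h. The ratio was higher at 96 h in 6 of 6 populations, M1 included. In M1 both genes were lower at 96 h, Prosalpha3T at -0.267 and Prosalpha3 at -0.346 on the log2 scale. Prosalpha3T itself was higher at 96 h in 5 of 6 populations, and Prosalpha3 in 1 of 6. The rise of the ratio is thus partly a fall of Prosalpha3. No other paralogue had a higher ratio at 96 h in all 6. Prosalpha4T1, Prosbeta2R2, Rpt3R and Rpt4R did so in 5 of 6, each except in M1. These ratios are descriptions without a test. Prosbeta2, Prosbeta5, Rpt4 and Rpt6 overlap a gene of the other strand by 81 to 182 exonic bases, and Rpt3R overlaps Alg12 by 20, so their levels are less certain; Prosalpha4T1 lies across CG42322 without sharing exonic bases.

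**Figure D2:**
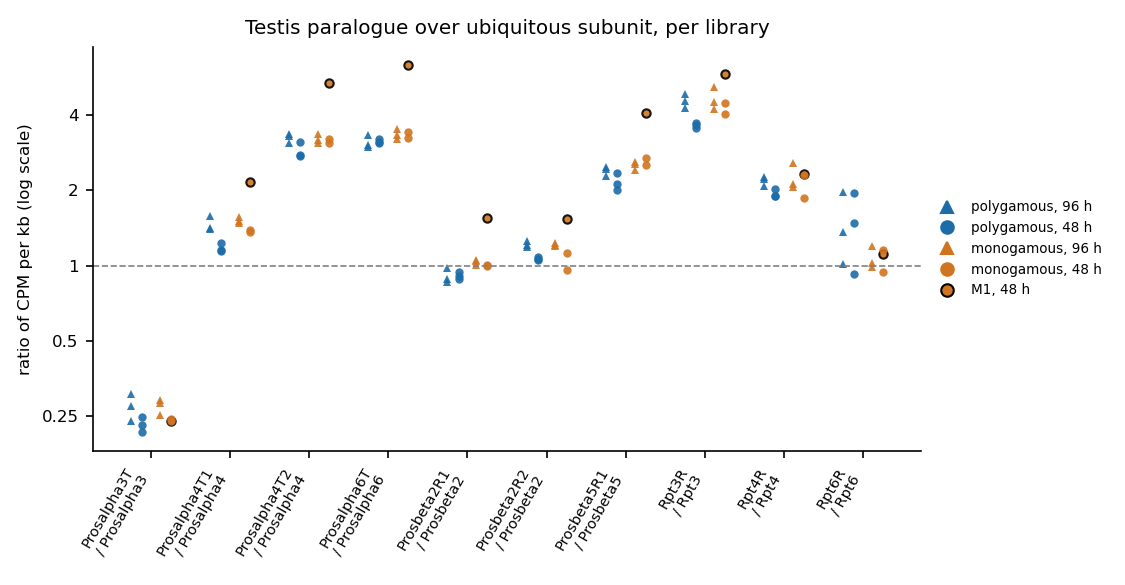
Ratio of each testis paralogue to its ubiquitous subunit, both in CPM per kb of exon (log axis), 1 point per library, with polygamous libraries left of monogamous ones and 96 h left of 48 h; the dashed line marks equal levels and the outlined circle is M1 at 48 h. Prosalpha3T lies at 0.2155 to 0.307, and M1 at 48 h is the highest point for 7 paralogues.

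In the library of M1 at 48 h all 10 paralogues lay above the median of the other 5 libraries of 48 h, by 1.43 times for Prosalpha6T, 1.38 times for Prosalpha4T2, 1.325 times for Prosbeta2R1, 1.30 times for Prosalpha4T1, 1.28 times for Prosbeta5R1 and 1.26 times for Prosalpha3T. Prosbeta2R2, Rpt4R, Rpt6R and Rpt3R lay nearer to it, at 1.13, 1.11, 1.09 and 1.07 times. Of the ubiquitous subunits, Prosalpha4, Prosalpha6, Prosbeta2, Prosbeta5 and Rpt3 lay below every other library of 48 h, at 0.684 to 0.804 of the median, while Prosalpha3 was at 1.23 times, Rpt6 at 1.047 and Rpt4 at 0.948. The summed 20S core list was at 1.092 times and the summed 19S cap list at 1.03 times. The marker lists moved in that library too: the 18 spermatid genes summed to 52820 CPM, against 38710 to 42910 CPM in the other 5 libraries of 48 h, and the 13 spermatocyte genes to 2020 CPM, against 1659 to 1850 CPM. The 8 accessory gland genes summed to 5922 CPM, against 18920 to 25030 CPM, and the 9 fat body and haemocyte genes to 312.4 CPM, against 147.9 to 180.2 CPM. That library was chosen for a closer look because it was unlike the rest, and the share of all genes above or below the other 5 is not given here. The part of tissue composition in the paralogue levels of that library was not tested. The tests of age, regime and population below were repeated without M1.

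**Figure D3:**
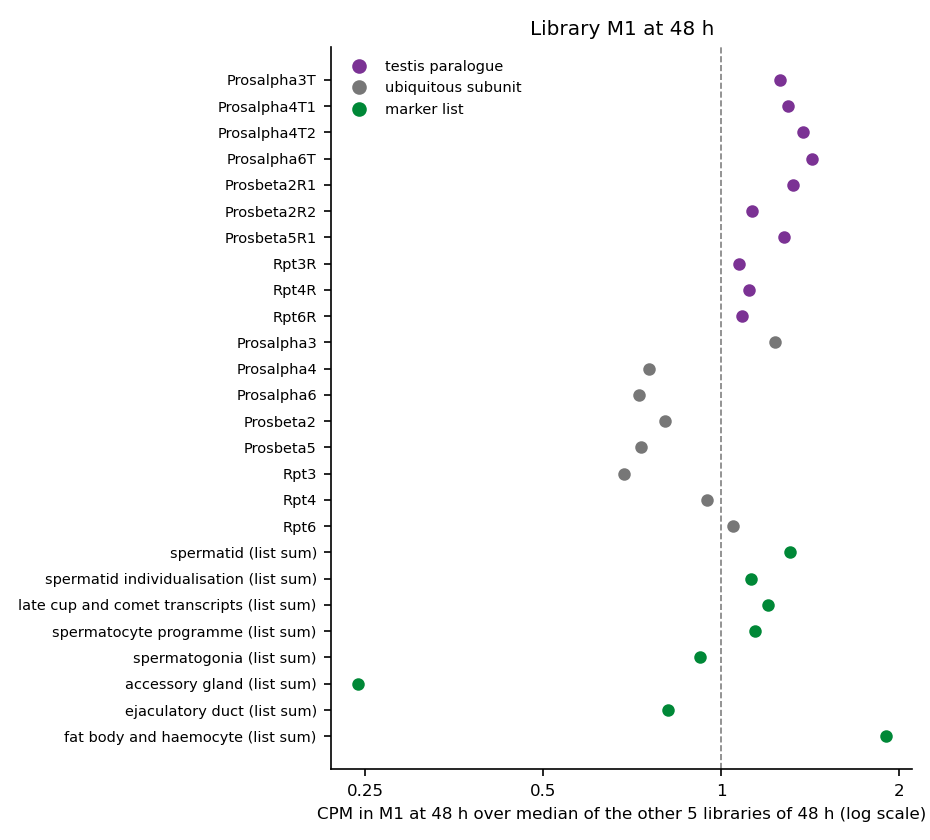
CPM in the library of M1 at 48 h divided by the median of the other 5 libraries of 48 h (log axis) for the testis paralogues, their ubiquitous subunits and the summed CPM of 8 marker lists. All 10 paralogues lie right of 1, and the accessory gland list lies at 0.243.

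The first comparison of the design asks what differs between males of 96 h and 48 h of adult age. Averaged over both regimes, none of the 10 paralogues passed the threshold (an adjusted p under 0.05, edgeR's quasi-likelihood F test with Benjamini-Hochberg adjustment over all genes tested), where 1.47% of 13156 genes did. Without adjustment 1 of 10 had a p under 0.05, against 17.0% of all genes. That gene was Prosbeta2R2, at 0.16 ± 0.07 higher on the log2 scale at 96 h (SE, adjusted p = 0.281 by edgeR), higher in 5 of 6 populations. The other changes ran from -0.16 ± 0.08 for Prosalpha6T (adjusted p = 0.334, edgeR), lower in 6 of 6 populations, to 0.12 ± 0.07 for Prosalpha3T. The median change of the 10 was -0.011 and 5 were positive, against 0.0097 and 52.4% over all genes; with size factors from testis genes alone, the median was 0.070 against 0.0865 over all genes.

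These calls depended on M1, whose levels of all 10 paralogues were lower at 96 h than at 48 h. In the other 5 populations Prosalpha3T, Prosalpha4T1, Prosbeta2R2 and Rpt4R were higher at 96 h in 5 of 5, and Prosbeta2R1 and Rpt3R in 4 of 5. The share of all genes higher in 5 of 5 is not given here. Without both M1 libraries, Prosalpha3T rose at 96 h by 0.21 ± 0.05 on the log2 scale (1.155-fold, adjusted p = 0.0295, edgeR), 1 of 10 paralogues where 2.56% of 13226 genes were higher. The populations are also true pairs across ages. With the population as a block and without M1, a fit chosen after the data were seen, 3 of the 10 rose. Prosalpha3T rose by 0.21 ± 0.04 (adjusted p = 0.00329), Prosbeta2R2 by 0.215 ± 0.040 (adjusted p = 0.00342) and Prosalpha4T1 by 0.12 ± 0.04 (adjusted p = 0.0335, all edgeR), each higher in 5 of 5 populations. In that fit 10.7% of 13226 genes rose and 11.0% fell. None of the 10 fell; Prosalpha6T, the most abundant of them, was -0.07 ± 0.03 and lower in 5 of 5 populations (adjusted p = 0.0738, edgeR). With all 12 libraries, the block alone called none of the 10. Of the marker lists in the blocked fit without M1, 7 of 13 spermatocyte genes rose and none fell, while 3 of 18 spermatid genes fell and none rose. Of the accessory gland genes 6 of 8 fell, with a median of -0.632. The part of germ cell stages or tissue composition in the paralogues' changes was not tested.

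Within the regimes, no paralogue was called at 96 h against 48 h in polygamous males, where 0.0988% of all genes were, or in monogamous males, where 0.547% were by edgeR. At an unadjusted p under 0.05 there were 0 of 10 in polygamous males, against 7.715% of all genes, and 1 of 10 in monogamous males, against 14.77%. DESeq2 called 0 of 10 in either, and 128 and 335 genes in all. In polygamous males Prosbeta2R2 was higher by 0.19 ± 0.10 and Prosalpha3T by 0.18 ± 0.10, in 3 of 3 populations each (adjusted p = 0.721 and 0.767, edgeR). In monogamous males Prosalpha6T was at -0.26 ± 0.12 (adjusted p = 0.335, edgeR), lower in 3 of 3 populations, and at -0.07 ± 0.05 without M1 (adjusted p = 0.628, edgeR). With the population as a block and without M1, 2 of 10 rose in each regime. In polygamous males, where 6.44% of 13226 genes rose, these were Prosalpha3T, by 0.18 ± 0.05 (adjusted p = 0.0301, edgeR), and Prosbeta2R2, by 0.19 ± 0.05 (adjusted p = 0.0287, edgeR). In monogamous males, where 3.85% rose, they were Prosalpha3T, by 0.23 ± 0.06 (adjusted p = 0.0408, edgeR), and Prosbeta2R2, by 0.24 ± 0.06 (adjusted p = 0.0415, edgeR). The difference between the age changes, polygamous minus monogamous, was called for 0% of genes by edgeR and for 0 by DESeq2, with 325 at an unadjusted p under 0.05. It was positive for all 10 paralogues, with a median of 0.132 against 0.0138 over all genes, but without M1 it was positive for 5 of 10 with a median of -1e-04.

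**Figure D4:**
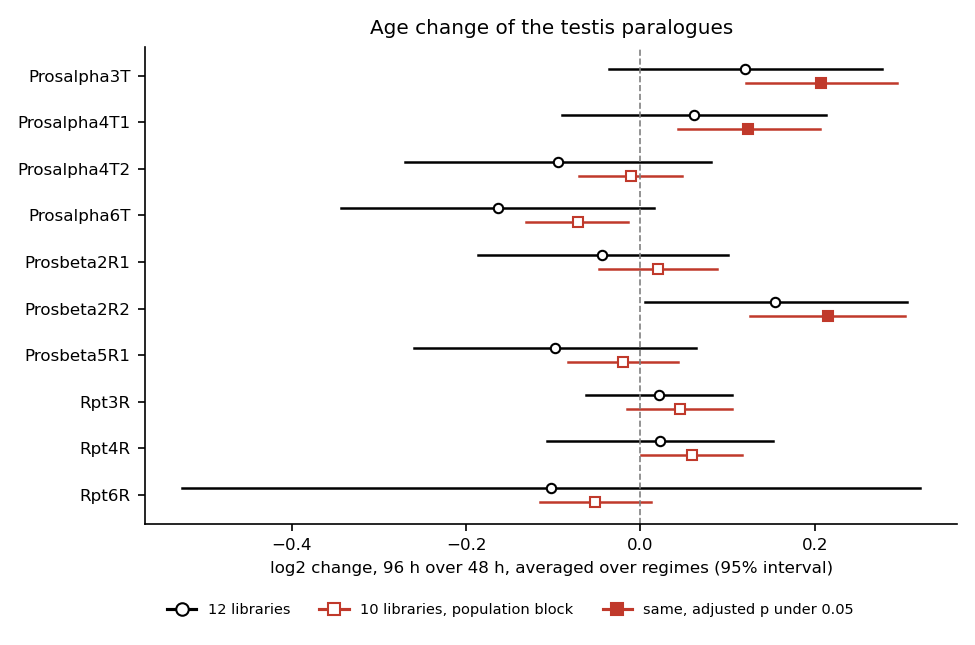
Log2 change at 96 h over 48 h, averaged over regimes, with 95% intervals: black circles for all 12 libraries, red squares for the 10 libraries without M1 with the population as a block, filled where the adjusted p is under 0.05. Prosalpha3T, Prosalpha4T1 and Prosbeta2R2 are filled, and the intervals without M1 are narrower for all 10 genes.

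The second comparison asks whether the mating regimes differ. Both ages of a population were summed first, so that each population counted once, which gave 3 polygamous sums and 3 monogamous sums. None of 13512 genes (0%) passed the threshold by edgeR, with 1280 at an unadjusted p under 0.05, and 77 by DESeq2, none of them among the 10. At single ages edgeR called 0% of 13156 genes at 48 h and 0% at 96 h, with 2249 and 486 at an unadjusted p under 0.05, and DESeq2 called 137 and 24. Over the sums, Rpt6R was furthest from 0, at 0.49 ± 0.25 higher in polygamous populations (1.41-fold, 95% interval -0.109 to 1.097, adjusted p = 0.534, edgeR). The other 9 ran from -0.12 ± 0.06 for Prosbeta2R1 to 0.07 ± 0.06 for Prosbeta2R2. Without M1, Rpt6R was at 0.51 ± 0.31 (adjusted p = 0.659, edgeR) and the other 9 ran from -0.08 ± 0.07 for Prosbeta5R1 to 0.11 ± 0.06 for Prosbeta2R2. The median of the 10 was -0.024, with 3 positive, against 0.0075 over all genes; with size factors from testis genes it was 0.087, with 8 positive, against 0.1148 over all genes.

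At the level of population means, Prosbeta2R1 alone of the 10 did not overlap between regimes, at 42.7 ± 0.509 CPM in polygamous and 46.7 ± 4.06 CPM in monogamous populations (SD, n = 3 each). Over all genes, 9.04% did not overlap with polygamous populations lower, close to the share of 1 in 10. The ubiquitous counterparts lay the other way. Of the 8, Prosalpha4, Prosalpha6, Prosbeta2, Prosbeta5, Rpt3 and Rpt4 did not overlap and were higher in polygamous populations, where 9.73% of all genes were. Rpt3, for example, averaged 24.2 ± 1.12 CPM in polygamous and 21.4 ± 1.43 CPM in monogamous populations, and Prosalpha4 37.5 ± 0.549 and 33.6 ± 2.06 CPM. None of the 8 was called (lowest adjusted p = 0.52, edgeR). Their median change was 0.146, positive in 8 of 8, where 51.75% of all genes were positive. Without M1 it was 0.100, positive in 8 of 8, and with RLE size factors the change was positive in 7 of 8. The full lists of ubiquitous subunits lay nearer to 0. With RLE size factors 6 of 13 core and 12 of 18 cap genes were positive (medians -0.003 and 0.028). Without M1, 9 of 13 and 16 of 18 were positive (medians 0.049 and 0.039). Of the 8 accessory gland genes, 8 were positive with a median of 0.294, and 7 with a median of 0.072 without M1. The 18 spermatid genes were all negative, with a median of -0.114, and -0.072 without M1; with size factors from testis genes 9 of the 18 spermatid genes turned positive. The part of tissue composition in these differences was not tested.

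Populations differed within a regime at Rpt6R. A test of the 3 populations within each regime, added after the data were seen, used the libraries of both ages of a population as its replicates (F test with 4 degrees of freedom, edgeR). It called 5.69% of 13156 genes and 1 of the 10 paralogues, Rpt6R (F = 34.5, adjusted p = 0.00548), which ranked 165 among all genes. Its population means were 78.3 CPM in P1, 115.7 CPM in P2 and 157.5 CPM in P3, and 86.9, 87.75 and 76.6 CPM in M1, M2 and M3. The highest was thus 2.06 times the lowest, while the ages of 1 population differed by 0.522% to 19.1%. The ratio of Rpt6R to Rpt6 followed the same order, at 1.96 and 1.96 in P3 at 96 h and 48 h, 1.36 and 1.48 in P2, and 1.02 and 0.926 in P1. Rpt6 itself was close in those populations, with means of 78.1 CPM in P3, 79.3 CPM in P2 and 78.5 CPM in P1.

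Without M1 the test called 20.9% of 13226 genes and 3 of the 10. Rpt6R then ranked 23 (F = 177, adjusted p = 3.76e-07, edgeR). Prosbeta5R1 was called (adjusted p = 0.0129, edgeR), with 121 CPM in P1, 142 CPM in P2, 126 CPM in P3, 134 CPM in M2 and 140.3 CPM in M3. Rpt4R was called as well (adjusted p = 0.0244, edgeR), with M3 the lowest population at 74.5 CPM, against 79.95 to 86.8 CPM in P1, P2, P3 and M2. The share of 3 in 10 is near that of all genes. The Rpt6R call was lost when P1 at 48 h, P3 at 48 h or P3 at 96 h was left out, each of which leaves its population with 1 library, assumed to vary like the others (adjusted p = 0.066, 0.055 and 0.0528, edgeR). Of the neighbours of Rpt6R, CG9702 lies 80 bases away and was not called for population (adjusted p = 0.569, edgeR); without M1 it was (adjusted p = 0.0222, edgeR), with 128.5 CPM in P1, 119.3 CPM in P2 and 100.7 CPM in P3, the reverse order. CG9717 lies 322 bases away on the other side and had at most 1.15 CPM.

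**Figure D5:**
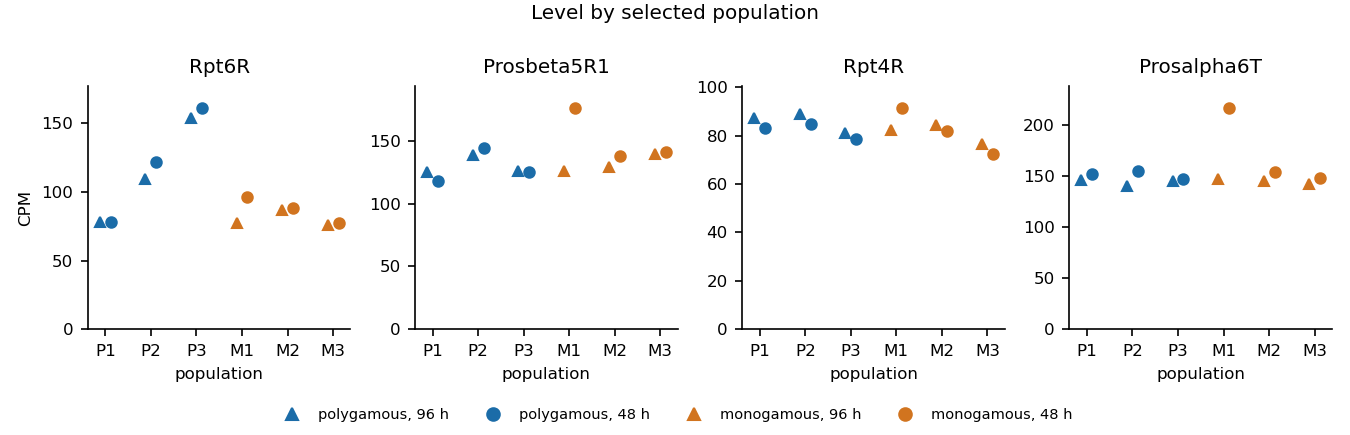
CPM of Rpt6R, Prosbeta5R1, Rpt4R and Prosalpha6T by population, from 0, triangles 96 h and circles 48 h, polygamous populations in blue and monogamous ones in orange. Rpt6R steps up over P1, P2 and P3 at both ages, whereas Prosalpha6T is level in all populations but M1 at 48 h, at 216.5 CPM.

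With all 12 libraries and no block, edgeR called no other proteasome gene in the age and regime comparisons. Of the 14 ubiquitous 20S core genes, 13 could be tested; at 96 h against 48 h, averaged over regimes, 2 of 13 were positive with a median of -0.044, and 9 of 13 with size factors from testis genes. None of the 18 ubiquitous 19S cap genes was positive (median -0.064), which turned to 11 of 18 with those factors. At an unadjusted p under 0.05 there were 1 of 13 core and 4 of 18 cap genes in that comparison, against 17.0% of all genes. DESeq2 called 0 and 1 of them, and 611 genes in all. In the blocked fit without M1, 5 of the 18 cap genes and 1 of the 13 core genes fell at 96 h and none rose, while 11.0% of all genes fell. Prosalpha1, the core gene not tested, and its copy Prosalpha1R had at most 2 and 0 counts in any library; counts of such near-identical copies are uncertain, so no level is given. Of the 8 activators, assembly factors and regulators matched and of the 13 genes of spermatid individualisation, the step in which caspases and the proteasome help strip the cytoplasm from sperm, edgeR called none with all 12 libraries and no block. In the blocked fit without M1, 1 of the 8 rose and 1 fell at 96 h, and 1 of the 13 rose and 5 fell. For age averaged over regimes, 2 of 8 and 5 of 13 had an unadjusted p under 0.05 with all libraries, against 17.0% of all genes. DESeq2 called 1 and 3 of them. Of the fat body and haemocyte genes, 2 of 7 tested fell at 96 h, vkg, a basement membrane collagen, by 0.97 ± 0.19 (adjusted p = 0.0372, edgeR) and SPARC, a collagen-binding protein, by 0.605 ± 0.118 (adjusted p = 0.0328, edgeR). Fbp1, a larval serum protein receptor, was the 1 of these 7 called in the population test with all libraries.

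Among 5 further paralogues of proteasome subunits, Prosbeta4R1, Prosbeta4R2, Prosbeta5R2, Rpn12R and Uch-L5R, edgeR and DESeq2 called none for age or regime with all 12 libraries and no block. For age averaged over regimes 1 of 5 had an unadjusted p under 0.05, against 17.0% of all genes. Rpn13R, looked at after the data were seen, had 47.98 ± 5.002 CPM per kb (SD, n = 12). Rpn12R, a copy of a cap subunit, was the most abundant at 124 ± 8.40 CPM per kb, and Prosbeta5R2, the second copy of the beta5 subunit, reached 26.9 ± 2.35, against 122.5 ± 13.7 for Prosbeta5R1 (SD, n = 12). Prosbeta4R1 and Prosbeta5R2 were higher at 96 h in 5 of 6 populations, each except M1. Both rose in the blocked fit without M1, 2 of 5 where 10.7% of 13226 genes rose. Rpn12R averaged 111.8 ± 2.675 CPM in polygamous and 121.9 ± 1.90 CPM in monogamous populations (SD, n = 3 each), without overlap, but was not called (-0.115 ± 0.043, adjusted p = 0.52, edgeR). Uch-L5R did not overlap either, at 61.9 ± 1.62 CPM in polygamous and 67.9 ± 4.96 CPM in monogamous populations. Over all genes, 9.04% did not overlap with polygamous populations lower. Prosbeta4R2 shares 69 exonic bases with Or23a, so its count is uncertain.

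Summed over the 10 genes, the paralogues made up 870 ± 30.3 CPM in polygamous males at 96 h, 860 ± 42.0 CPM in polygamous males at 48 h, 825.5 ± 6.12 CPM in monogamous males at 96 h and 897 ± 131.5 CPM in monogamous males at 48 h (SD, n = 3 each). Set against the summed spermatid genes, they came to 2.27 ± 0.0136% and 2.14 ± 0.0682% in polygamous males at 96 h and 48 h, and to 2.05 ± 0.0553% and 1.98 ± 0.00657% in monogamous males. On that scale M1 at 48 h was no longer apart, at 1.98%. The polygamous libraries of 96 h lay above all others, and within each regime those of 96 h lay above those of 48 h. The spermatid sum itself was lower at 96 h, on average 38300 against 40190 CPM in polygamous males and 40350 against 45390 CPM in monogamous males. The order of these ratios is thus not an order of the paralogue levels. Without Rpt6R, the other 9 genes came to 1.98 ± 0.0977% and 1.84 ± 0.0457% in polygamous males at 96 h and 48 h, and to 1.85 ± 0.0603% and 1.78 ± 0.0187% in monogamous males (SD, n = 3 each), and the polygamous and monogamous libraries of 96 h then overlapped. The polygamous libraries of 96 h (lowest 1.871%) and 48 h (highest 1.893%) then overlapped as well.

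The genes most like the mean profile of the 10 over the 12 libraries were Inx5, a gap junction innexin, Pfdn6, a prefoldin subunit, kin17, CG42813 and CG17122. Their root mean square differences from it were 0.0361 to 0.0408 on the log2 scale, among 7339 genes of at least 10 CPM. All 5 were highest in M1 at 48 h, which follows from matching them to a profile of genes that were high in that library. Rpt6R had the profile least like that mean among the 10, with a difference of 0.347, against 0.0723 to 0.113 for the other 9. Nearest to Rpt6R itself, a comparison added after the data were seen, were Obp99a, an odorant-binding protein, at 0.121, RFeSP, the Rieske iron-sulphur protein of the respiratory chain, at 0.174, then CG7183, NLaz, a lipocalin, and Nuf2, a kinetochore protein. Obp99a had means of 66.2 CPM in P1, 87.8 CPM in P2 and 114 CPM in P3. Obp99a and CG7183 lie on 3R as Rpt6R does, while RFeSP, NLaz and Nuf2 lie on 2L.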

How the data were processed

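Stranded total RNA (TruSeq Stranded Total RNA kit, per the labels' protocols) was sequenced from 12 pools. Each library has its own deposited table, whose values are unnormalised counts of reads per gene. The submitters' processing notes list the tools TopHat2 (version 2.1.0), HTSeq (0.6.1) and Trimmomatic (0.33), and the build BDGP6; annotation release, strand setting and counting mode are not given in the sources used here. The 5 summary lines, 15.1% to 17.2% of reads counted, stayed out of library sizes and tests. Of these, reads not aligned uniquely were 10.8% to 12.8%, and how many belong to paralogue pairs was not tested. Symbols, positions and exon lengths came from Ensembl's BDGP6 annotation, which matched 17253 of 17559 genes and all 10 paralogues.

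The members and gene lists were chosen with earlier results of these data known. Counts were tested with edgeR 4.0.16 (R 4.3.3): TMM scaling, filterByExpr, robust quasi-likelihood F tests with 1 coefficient per group over all 12 libraries, and Benjamini-Hochberg adjustment over all genes, with a threshold of 0.05. CPM use TMM-scaled library sizes, and CPM per kb the union of exons. The script was tested on simulated data. Named genes are the 10 paralogues, their ubiquitous subunits, further proteasome paralogues, called list genes, and the 5 genes with the nearest log2(CPM + 0.5) profile. Prosalpha1R, Rpn13R, the neighbours of Rpt6R and its nearest genes were added after the data were seen. DESeq2 1.42.0 and other scalings were alternatives.

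Replicates are populations, with 1 pool of 30 tracts each. Within groups, chi-square per degree of freedom was 12.1 to 199.9, far above sampling noise, and all 12 were kept as separate samples. The libraries of a population deviated together (correlations over genes of 0.314 to 0.690), so the population pairs the ages. Numbers shared across regimes gave lower correlations (-0.037 to 0.11), except P2 with M2 at 96 h, at 0.319 against 0.314 for the ages of M1.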

Additional observations from a re-analysis of the deposited data

Results flagged for a closer look

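In groups of 6 libraries of 1 age, 12 of the 42 sets of values examined held a library far from the other 5. A rate by chance of about 1 set in 20 assumes 6 like libraries, whereas each set mixed 2 regimes. All 12 were the library of M1 at 48 h, and all were high. In CPM these were Prosalpha3T at 31.9, Prosalpha4T1 at 46.9, Prosalpha4T2 at 165.4, Prosalpha6T at 216.5 and Prosbeta2R1 at 56.8. The next highest libraries of 48 h had 25.8, 37.7, 126.6, 154.8 and 44.8 CPM for these genes in the same order. As ratios to the ubiquitous subunit they were Prosalpha4T1 at 2.15, Prosalpha4T2 at 5.39, Prosalpha6T at 6.32, Prosbeta2R1 at 1.55, Prosbeta2R2 at 1.54 and Prosbeta5R1 at 4.08. The summed CPM of the 10 genes was 1047, against 885 in the next library. The sets overlap in what they measure, since each ratio and the sum use the same counts, so they are 1 library standing apart rather than 12 separate observations.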

How the results depend on the processing

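No age or regime comparison called any of the 10 paralogues under DESeq2, RLE or testis-gene size factors, no filter, or the replicate block alone. Counts over all genes moved more. Averaged over regimes, 96 h against 48 h called 194 genes, 611 with DESeq2, 475 with the population as block, 805 without M1 (1 paralogue) and 2874 with both (3 paralogues); leaving out 1 library gave 80 to 914, and 0 to 2 paralogues. In monogamous males it called 72, 335 with DESeq2, 29 with testis-gene factors, 252 with the block, 1029 with the block and without M1 (2 paralogues, Prosalpha3T and Prosbeta2R2), and 4 to 157 with 1 library left out. In polygamous males it called 13, 128 with DESeq2, 4 with testis-gene factors, 62 with the block, 371 without M1, 1973 with both (the same 2 paralogues), and 2 to 366 with 1 library left out. Polygamy against monogamy called 0 genes at each age, and 137 at 48 h and 24 at 96 h with DESeq2. With the population number as block it called 9 at 48 h. With 1 library left out it called 0 to 1 at 48 h and 0 to 25 at 96 h. Population numbers gave mostly weak correlations across regimes (-0.037 to 0.319). Over population sums DESeq2 called 77, and leaving out 1 population gave 0 to 9. The difference of age changes called 0, 1 with the block, 87 with the block and without M1, and 0 to 1 with 1 library left out. Populations within regimes differed for 748 genes, 2758 without M1 (3 paralogues), and 268 to 7001 with 1 library left out (0 to 9 paralogues, 9 without M1 at 96 h). The 9 paralogues and the 7001 genes came from the same fit, without M1 at 96 h. That fit leaves M1 with its 48 h library alone, the library unlike the rest. M1 then has no spread of its own in that fit, so no conclusion about the paralogues is drawn from it. The cause of the shifts in these counts was not tested. The Prosbeta2R1 ratio ran from 0.9603, without M1 at 48 h, to 1.023 with 1 library left out. Without that library alone, Prosalpha3T (0.19 on the log2 scale, adjusted p = 0.0426) and Prosbeta2R2 (0.21, adjusted p = 0.0312, both edgeR) rose with age averaged over regimes. The same fit called 914 genes in all, the highest count for that comparison with 1 library left out. The paralogues had 808 or more counts in every library, and each regime had 3 populations.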
